A study of Mus musculus with 12 samples.

Results

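The complement system was described here through 33 genes for its recognition molecules, proteases, terminal components, regulators and receptors, 30 of which were measured among the 17097 genes of the arrays. The members were chosen by name, and each was read from the probe set annotated to that gene alone with the highest mean log2(intensity + 16) over all 12 arrays. Of the 30 genes, 23 had 1 such probe set and 7 had several. C3, C7 and Cfd were not analysed here.

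Complement is a set of plasma and membrane proteins that act as a proteolytic cascade. It is started by C1q on antibody (classical pathway), by collectins and ficolins on sugars (lectin pathway), or by slow spontaneous activation that factor B amplifies (alternative pathway). The pathways meet at convertases that cleave C3 and C5, release the anaphylatoxins C3a and C5a, and begin the membrane attack complex. Hepatocytes make most of the plasma components, while macrophages make C1q, and both anaphylatoxin receptors have been studied in liver regeneration.

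Liver RNA was taken from adult C57BL/6 wildtype mice and from adult Socs2-null mice kept on that background. In each genotype there were animals without an operation (0 h) and animals at 24 h and at 36 h after 2/3 hepatectomy, the removal of most of the liver. Each of the 6 groups had 2 arrays, and each array carried RNA pooled from 3 animals, which the submitters call biological replicates, so n counts pools. No group had a sham operation, and neither sex nor time of day of harvest is stated in the labels. Liver loss, surgery and harvest hour cannot be told apart in the comparisons with 0 h.

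Intensities are the authors' processed values on a linear scale. Array means ran from 248 to 259 and medians from 43.5 to 52.3, and the brightest of 17 tag control probe sets, taken as background, read 33.0 to 45.0. By its brightest probe set Socs2 itself read 403 ± 202 (SD, n = 2) in unoperated wildtype liver and 27.0 ± 0.898 in unoperated Socs2-null liver, and the Socs2-null arrays stayed at background at both later times. The 8 measured hepatocyte markers of 9 listed were bright on every array, with a summed intensity of 100792 to 102775 at 0 h and 83792 to 92461 after hepatectomy. In bulk tissue, fewer cells of a type and less RNA per cell cannot be told apart. Changes are log2 differences of intensity + 16 with their standard error, folds are taken on that scale, and a gene is called where its Benjamini-Hochberg adjusted p from limma over all genes was under 0.05. The number of arrays limits the precision of every value.

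The promoters of 4 members are shown first, because these genes fell after hepatectomy and their windows differ in the letters bound by factors known to act on liver acute phase genes. RefSeq windows (GRCm38.p6) held 250 bases before the start of 21 of the measured members. Each sequence is printed 5′ to 3′ on the strand of its gene, and capitals mark a match to the STAT letters TTCNNNGAA or the C/EBP letters TTGCNNAA.
C8b chr4:104766167-104766316, plus strand, 150 to 1 bases before the start: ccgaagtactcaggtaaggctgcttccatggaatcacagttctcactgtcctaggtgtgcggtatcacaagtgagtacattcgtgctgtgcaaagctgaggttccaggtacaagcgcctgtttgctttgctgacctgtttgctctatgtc
Colec11 chr12:28623440-28623580, minus strand, 250 to 110 bases before the start: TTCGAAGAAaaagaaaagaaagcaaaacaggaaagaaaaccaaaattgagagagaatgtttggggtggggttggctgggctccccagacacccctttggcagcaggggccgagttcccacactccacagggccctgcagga
Masp2 chr4:148602394-148602543, plus strand, 150 to 1 bases before the start: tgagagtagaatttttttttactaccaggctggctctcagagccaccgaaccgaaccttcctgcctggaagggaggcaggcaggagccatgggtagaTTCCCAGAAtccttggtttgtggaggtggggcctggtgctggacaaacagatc
C9 chr15:6445196-6445345, plus strand, 150 to 1 bases before the start: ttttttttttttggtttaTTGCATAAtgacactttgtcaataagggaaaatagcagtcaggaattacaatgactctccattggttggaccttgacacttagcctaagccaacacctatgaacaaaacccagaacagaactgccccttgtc
On either strand of the 250 bases, the STAT letters were found for 3 of the 21 members (C8a, Colec11 and Masp2) and for 7.02% of all 32851 windows. The C/EBP letters were found for 1 member (C9) and for 9.56% of all windows. An NF-kB pattern (3 G, any 5 bases, then 2 C) was found for 7 members, among them Cd55, Cd59a and C3ar1, and for 45.8% of all windows, while the HNF1 palindrome was found for 0 members and 0.00913% of all windows. The 150 bases shown for C8b held none of the STAT and C/EBP letters. A match describes the letters and is not evidence of binding.

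After hepatectomy 15 to 18 of the 30 measured complement genes were called lower, and 0 to 2 higher, depending on genotype and time. At 24 h 18 of the 30 members were called lower and 0 higher in wildtype liver, where 25.8% of all genes were called, 15.6% lower and 10.2% higher. At 36 h 15 were called lower and 2 higher in wildtype liver, against 9.5% and 5.69% of all genes (15.2% in either direction). In Socs2-null liver 18 were called lower and 1 higher at 24 h (13.5% and 10.8% of all genes, 24.2% together), and 18 lower and 1 higher at 36 h (10.1% and 9.84%, 20% together). The median log2 change of the members at 24 h and 36 h was -0.38 and -0.39 in wildtype liver, and -0.43 and -0.47 in Socs2-null liver, beside -0.08, -0.06, -0.04 and -0.03 over all genes. These comparisons share the 0 h arrays within a genotype.

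In all 4 comparisons with 0 h, 14 members were called lower, and 20 were called lower in at least 1. Cd55 and C4bp were called higher in at least 1, and 8 members were called in none. The wildtype 24 h count was 8 without either wildtype 0 h array, 9 without wildtype 24 h replicate 1 and 11 without replicate 2. The wildtype 36 h count was 7 and 8 without wildtype 0 h replicate 1 and 2, and 9 without wildtype 36 h replicate 2. The Socs2-null 24 h count was 12 without either Socs2-null 0 h array or without Socs2-null 24 h replicate 2. With each array centred on its median, 9 members were called lower and 1 higher in wildtype liver at 24 h and 11 and 2 at 36 h, and 13 and 1, and 17 and 1 in Socs2-null liver. The 4 calls of C2, C6, C8b, C8g, Colec10, Colec11 and Mbl2 held under every alternative tried. Counts over all genes moved too, 80 of 275 recomputed ones by more than 1.5-fold or to or from 0. The shares of all genes given above are those of the full fit and do not apply to these alternatives.

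**Figure D1:**
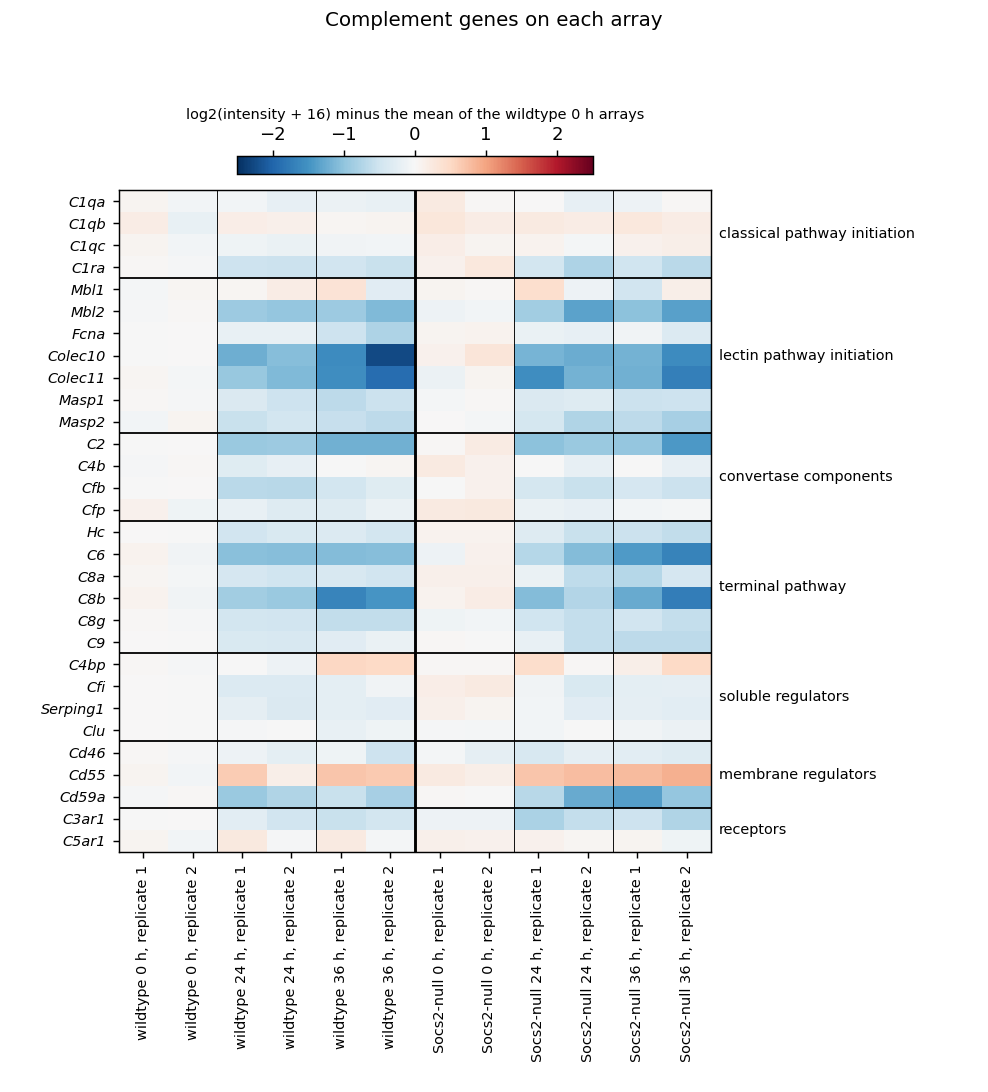
The 30 measured complement genes (rows, grouped by role) on each of the 12 arrays (columns), coloured by log2(intensity + 16) minus the mean of the wildtype 0 h arrays. The arrays after hepatectomy are blue (lower) for most rows, most deeply for Colec10 and Colec11 on wildtype 36 h replicate 2, and red (higher) for Cd55.

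Colec10, of the lectin pathway, fell most of the 30 members in wildtype liver at both times and in Socs2-null liver at 24 h, while C8b of the terminal pathway fell most in Socs2-null liver at 36 h. Both Colec10 and Colec11, which encode collectins that bind sugars and recruit the MASP proteases, were called lower at both times in both genotypes. Of the 7 measured members of this group, 5 were called lower in wildtype liver at 24 h and 6 at 36 h, and 5 in Socs2-null liver at each time. The soluble lectin Mbl2 fell as well, and its relative Mbl1 was not called.

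In wildtype liver Colec10 read 255 and 256 at 0 h, then 100 and 114 at 24 h, then 75.6 and 40.8 at 36 h. In Socs2-null liver the readings were 277 and 318, then 106 and 98.8, then 104 and 75.2. Every array after hepatectomy was below every 0 h array, and wildtype 36 h replicate 2 was the lowest of all, above the brightest tag control of that array (34.0). The log2 change in wildtype liver was -1.14 ± 0.20 at 24 h (2.21-fold lower, adjusted p = 0.00334) and -1.91 ± 0.20 at 36 h (3.76-fold lower, adjusted p = 0.000301). In Socs2-null liver it was -1.40 ± 0.20 and -1.58 ± 0.20 (adjusted p = 0.00096 and 0.000563).

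Colec11 followed the same course. It read 277 and 259 at 0 h, then 130 and 115 at 24 h, then 81.0 and 60.2 at 36 h in wildtype liver, and 240 and 283, 81.0 and 108, and 108 and 70.2 in Socs2-null liver. No array after hepatectomy reached the lowest array at 0 h. The log2 change was -1.03 ± 0.19 and -1.72 ± 0.19 in wildtype liver (adjusted p = 0.00413 and 0.000386) and -1.33 ± 0.19 and -1.42 ± 0.19 in Socs2-null liver (adjusted p = 0.000953 and 0.000749). The STAT letters lie at the far end of its printed window.

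Single-cell surveys of mouse liver list Colec10 and Colec11 among the genes of stellate cells, the vitamin A storing cells beside the sinusoids. Of 8 stellate markers, 8 were measured, and 2 were called lower at 24 h and 3 at 36 h in wildtype liver, and 1 at each time in Socs2-null liver. Reln was called lower in all 4 comparisons (log2 change -0.59 and -1.14 in wildtype, -0.68 and -0.86 in Socs2-null liver), and Ecm1 at 36 h in wildtype liver alone (-1.0, against an uncalled -0.45 in Socs2-null liver). The summed intensity of the 8 markers ran from 4021 to 4417 at 0 h and from 3857 to 4288 at 24 h. At 36 h it ran from 2745 to 3915 in wildtype and from 3793 to 4471 in Socs2-null liver. The Socs2-null sums at 0 h were 4021 to 4417, and Colec10 and Colec11 changed by -1.58 and -1.42 there at 36 h. The lowest sum, 2745, was on wildtype 36 h replicate 2, the array with the lowest Colec10 and Colec11, and replicate 1 of that group read 3915. No stellate marker was under the tag controls on all arrays of a group, and the part of these cells in the falls was not tested.

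Mbl2, a mannose-binding lectin of plasma, fell about as far at 24 h as at 36 h. It read 3628 and 3768 at 0 h, then 1975 and 1877 at 24 h, then 1950 and 1706 at 36 h in wildtype liver, and 3388 and 3521, 2021 and 1461, and 1796 and 1435 in Socs2-null liver. The arrays after hepatectomy lay clear of those at 0 h. The log2 change was -0.94 ± 0.16 and -1.01 ± 0.16 in wildtype liver (adjusted p = 0.00234 and 0.00211) and -1.0 ± 0.16 and -1.10 ± 0.16 in Socs2-null liver (adjusted p = 0.00135 and 0.000921). Mbl1, the other mannose-binding lectin of the mouse, gave log2 changes from -0.22 to 0.12 (standard error 0.24). Its arrays differed widely within groups, with 3048 and 1977 in wildtype liver at 36 h and 3199 and 2194 in Socs2-null liver at 24 h.

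Masp2, the protease that cleaves C4 and C2 in lectin complexes, read 1264 and 1395 at 0 h, then 896 and 967 at 24 h, then 890 and 834 at 36 h in wildtype liver. In Socs2-null liver it read 1346 and 1278, 971 and 786, and 842 and 737. Every array after hepatectomy was below every 0 h array. Its log2 change ran from -0.51 to -0.72 (standard error 0.13) over the 4 comparisons, with adjusted p from 0.00368 to 0.0194, and its second probe set changed by -0.70 to -0.99. The wildtype 24 h call was lost without any 1 of the 4 arrays compared (adjusted p up to 0.145), and the calls in wildtype liver at 36 h and Socs2-null liver at 24 h without either 0 h array of the genotype or without replicate 2 of the later group (up to 0.124 and 0.0746).

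Masp1, a related lectin pathway protease gene, changed by -0.44 and -0.59 in wildtype and -0.33 and -0.51 in Socs2-null liver (standard error 0.11, all called). Its 4 other probe sets differed from the chosen one at 36 h, where they gave -0.35 to 0.15 in wildtype and -0.08 to 0.12 in Socs2-null liver. The 1 that gave 0.15 and 0.12 read 33.6 to 44.9, about the level of the tag controls. The mean of all Masp1 probe sets was called in none of the 4 comparisons. Each of the 4 calls was lost without at least 1 array, and the Socs2-null 24 h call without any 1 of 6. Fcna, which encodes ficolin A, was called in wildtype liver at 36 h alone (log2 change -0.64 ± 0.13, adjusted p = 0.00798), a call lost without either wildtype 0 h array or wildtype 36 h replicate 2 (adjusted p up to 0.0823). It read 846 and 868 at 0 h and 593 and 498 at 36 h in wildtype liver, and 901 and 906 at 0 h and 802 and 675 at 36 h in Socs2-null liver (log2 change -0.29 ± 0.13, adjusted p = 0.137). The difference between the genotypes in this response was 0.35 ± 0.18 (adjusted p = 0.999).

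**Figure D2:**
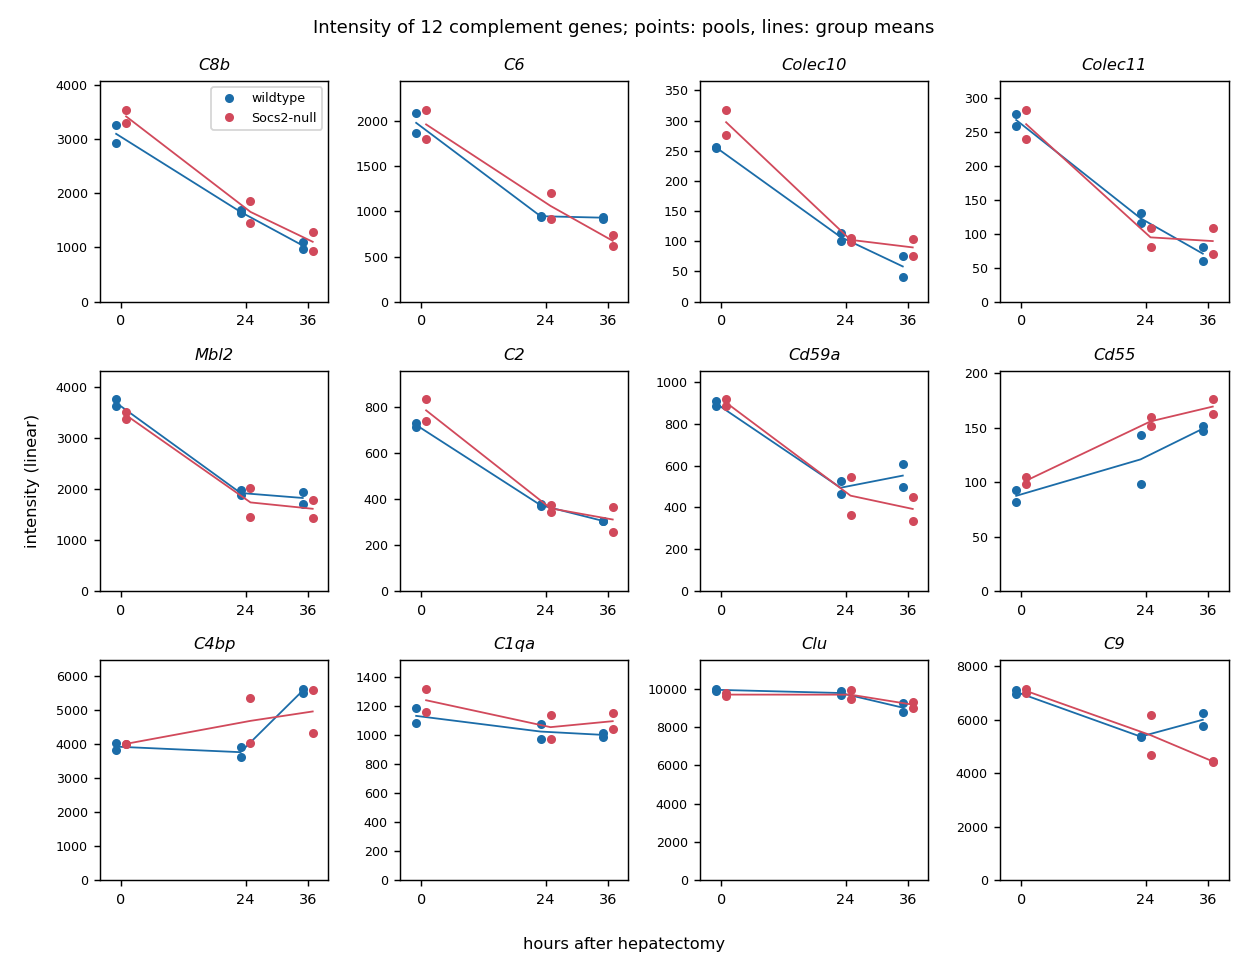
Intensity (linear axis from 0) of 12 complement genes against hours after hepatectomy; points are pools and lines join the group means of wildtype (blue) and Socs2-null (red) liver. C8b, C6, Colec10, Colec11, Mbl2, C2 and Cd59a lie lower on every array after hepatectomy than on any 0 h array of the same genotype. Cd55 lies higher on every such array in both genotypes, only just so on wildtype 24 h replicate 2. C1qa and Clu were called in no comparison.

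Of the classical pathway genes, the protease gene C1ra fell and the 3 genes of C1q, the recognition molecule, were not called. C1ra read 1761 and 1713 at 0 h, then 1211 and 1185 at 24 h, then 1237 and 1183 at 36 h in wildtype liver, and 1881 and 2086, 1260 and 1005, and 1229 and 1076 in Socs2-null liver. Its log2 change was -0.53 ± 0.13 and -0.52 ± 0.13 in wildtype liver (adjusted p = 0.0138 and 0.0227) and -0.81 ± 0.13 and -0.78 ± 0.13 in Socs2-null liver (adjusted p = 0.00163 and 0.00222). The arrays after hepatectomy were all below those at 0 h. The wildtype 24 h call was lost without any 1 of the 4 arrays compared (adjusted p up to 0.092), and the wildtype 36 h call without either 0 h array or without 36 h replicate 2 (up to 0.136). C1ra has a near-identical copy, C1rb, and probe sets may read both, so the split between them is uncertain.

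C1qa, C1qb and C1qc encode the chains of C1q and lie next to each other in the genome. Their log2 changes against 0 h ran from -0.23 to 0.00 for C1qa and C1qc and from -0.03 to 0.15 for C1qb, with standard errors of 0.11 to 0.13. C1qa stood at 1132 ± 73.2 in wildtype liver at 0 h, 1024 ± 68.9 at 24 h and 1002 ± 21.1 at 36 h, and at 1240 ± 112, 1055 ± 116 and 1096 ± 80.5 in Socs2-null liver. Macrophage markers moved both ways beside these values. Of 10 Kupffer cell and macrophage markers, all measured, Marco, Cd163 and Cd68 were called higher and Clec4f and Csf1r lower in each of the 4 comparisons, with Mpeg1 called lower at 24 h in both genotypes. Their summed intensity ran from 4353 to 5075 at 0 h and from 4420 to 7370 after hepatectomy, and their part in the level of C1q was not tested.

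Among the genes for convertase components, C2 fell most. C2 is the classical and lectin protease subunit, and factor B (Cfb), its neighbour in the genome, the alternative one. C2 read 713 and 732 at 0 h, then 370 and 377 at 24 h, then 306 and 304 at 36 h in wildtype liver, and 738 and 834, 346 and 374, and 364 and 258 in Socs2-null liver. All arrays after hepatectomy lay far below those at 0 h. The log2 change was -0.92 ± 0.15 and -1.20 ± 0.15 in wildtype liver (1.90-fold and 2.30-fold lower, adjusted p = 0.00226 and 0.000736) and -1.09 ± 0.15 and -1.31 ± 0.15 in Socs2-null liver (adjusted p = 0.000783 and 0.00029).

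Cfb read 3543 and 3550 at 0 h, then 2207 and 2172 at 24 h, then 2582 and 2886 at 36 h in wildtype liver. In Socs2-null liver it read 3515 and 3797, 2596 and 2396, and 2655 and 2436. Its lowest values were in wildtype liver at 24 h, where the log2 change was -0.69 ± 0.10 (adjusted p = 0.00134), against -0.38 ± 0.10 at 36 h (adjusted p = 0.0293). The wildtype difference between 36 h and 24 h was 0.32 ± 0.10 and was not called (adjusted p = 0.201). In Socs2-null liver the changes were -0.55 ± 0.10 and -0.52 ± 0.10 (adjusted p = 0.0032 and 0.00465). The wildtype 36 h call was lost without either 0 h array or 36 h replicate 1 (adjusted p up to 0.168) and the Socs2-null 36 h call without Socs2-null 0 h replicate 2 (0.0562).

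C4b and properdin (Cfp, which stabilizes the alternative convertase) moved less. C4b gave -0.26 and 0.02 in wildtype and -0.27 and -0.27 in Socs2-null liver (standard error 0.11, adjusted p from 0.0899 to 0.828) and was not called. C4b has a near-identical copy, C4a, so its reading may hold both. Cfp was called lower in Socs2-null liver at 24 h alone (-0.43 ± 0.12, adjusted p = 0.0266), a call lost without any 1 of the 4 arrays compared (up to 0.125), and its other changes ran from -0.30 to -0.24.

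The terminal pathway genes, whose products assemble the membrane attack complex, fell together. All 6 measured members were called lower at 24 h in both genotypes and at 36 h in Socs2-null liver, and 4 of them at 36 h in wildtype liver, where C8a and C9 were not called. C8a was just past the threshold there (limma adjusted p = 0.0586) and was called under some alternatives, quantile normalization among them. C8b and C6 fell most.

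C8b, the gene of the beta chain of C8, read 3262 and 2921 at 0 h, then 1682 and 1623 at 24 h, then 972 and 1093 at 36 h in wildtype liver. In Socs2-null liver it read 3292 and 3535 at 0 h, then 1457 and 1848 at 24 h, then 1280 and 924 at 36 h. In each genotype the groups at the 3 times did not overlap, and the order was 0 h, then 24 h, then 36 h from high to low. The log2 change was -0.90 ± 0.16 and -1.57 ± 0.16 in wildtype liver (adjusted p = 0.00353 and 0.000244) and -1.05 ± 0.16 and -1.64 ± 0.16 in Socs2-null liver (adjusted p = 0.00131 and 0.000114). The step from 24 h to 36 h was -0.67 ± 0.16 in wildtype and -0.59 ± 0.16 in Socs2-null liver and was called in neither (adjusted p = 0.115 and 0.594).

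The readings of the 3 chains of C8 did not change by the same amount, a difference that was not tested. C8a, which lies beside C8b in the genome, gave -0.46 and -0.45 in wildtype and -0.53 and -0.69 in Socs2-null liver (standard error 0.14), and C8g gave -0.47 and -0.62, and -0.46 and -0.45 (standard error 0.08). The log2 ratio of C8b to C8a within an array compares 2 probe sets, so its level has no meaning. In wildtype liver it ran from -0.66 to -0.60 at 0 h, from -1.08 to -1.06 at 24 h and from -1.87 to -1.63 at 36 h. In Socs2-null liver it ran from -0.67 to -0.55, from -1.53 to -0.72 and from -1.92 to -1.18. In both genotypes the ratio was lower on every array after hepatectomy than at 0 h, and the ratio to C8g was lower likewise (-1.02 to -0.71 at 0 h over both genotypes, -2.10 to -1.76 at 36 h). The C8a call at 24 h was lost in wildtype liver without any 1 of 6 arrays (adjusted p up to 0.187), and in Socs2-null liver without either 0 h array or 24 h replicate 2 (0.134) and, at 36 h, without 36 h replicate 1 (0.0519).

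C6, which joins C5b at the start of the complex, read 2099 and 1870 at 0 h, then 955 and 941 at 24 h, then 920 and 942 at 36 h in wildtype liver. In Socs2-null liver it read 1804 and 2129, 1203 and 920, and 735 and 613. The Socs2-null arrays at 36 h were the lowest. The log2 change was -1.05 ± 0.15 and -1.08 ± 0.15 in wildtype liver (adjusted p = 0.0013 and 0.00132) and -0.89 ± 0.15 and -1.52 ± 0.15 in Socs2-null liver (adjusted p = 0.00223 and 0.000121).

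Hc, the mouse gene of C5, and C9, whose product forms the pore, fell less. Hc read 5149 and 5111 at 0 h, then 3702 and 3915 at 24 h, then 4049 and 3739 at 36 h in wildtype liver, with log2 changes of -0.43 ± 0.10 and -0.40 ± 0.10 (adjusted p = 0.0102 and 0.0208), and -0.53 ± 0.10 and -0.66 ± 0.10 in Socs2-null liver (0.00336 and 0.00121). Both wildtype calls were lost without either 0 h array, and without 24 h replicate 1 or 36 h replicate 2 (adjusted p up to 0.0736 and 0.131). C9 read 7109 and 6961 at 0 h, then 5390 and 5347 at 24 h, then 5748 and 6248 at 36 h in wildtype liver, and 7155 and 6989, 6165 and 4680, and 4454 and 4435 in Socs2-null liver. Its 24 h changes were -0.39 ± 0.11 and -0.40 ± 0.11 (adjusted p = 0.0294 and 0.0278), and its 36 h changes -0.23 ± 0.11 in wildtype (adjusted p = 0.201) and -0.67 ± 0.11 in Socs2-null liver (adjusted p = 0.00248). The C9 call at 24 h was lost in wildtype liver without any 1 of the 4 arrays compared (up to 0.14) and in Socs2-null liver without either 0 h array or 24 h replicate 2 (up to 0.178).

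The soluble regulators moved in both directions. Factor I (Cfi), the protease that cleaves C3b and C4b with cofactors, was called lower at 24 h in wildtype liver and at both times in Socs2-null liver (-0.34, -0.43 and -0.42, standard error 0.10, adjusted p = 0.0337, 0.0114 and 0.0148). The C1 inhibitor gene Serping1 was called lower at 24 h in wildtype and at 36 h in Socs2-null liver (-0.29 and -0.34, standard error 0.09, adjusted p = 0.0386 and 0.0245). Each of these 5 calls was lost on leaving out either 0 h array of the same genotype or at least 1 later array (adjusted p up to 0.193). The uncalled Serping1 change in wildtype liver at 36 h was -0.27 (limma adjusted p = 0.0701), and it was called under some alternatives, quantile normalization among them. Clu, the gene of clusterin, an inhibitor of the terminal complex, was not called, with 9944 ± 79.6 at 0 h, 9777 ± 118 at 24 h and 9013 ± 350 at 36 h in wildtype liver and log2 changes from -0.14 to -0.00 (standard error 0.07).

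C4bp, a cofactor for factor I that binds C4b, was called higher in wildtype liver at 36 h. It read 4028 and 3834 at 0 h, then 3919 and 3618 at 24 h, then 5633 and 5522 at 36 h in wildtype liver, and 4019 and 4009, 5349 and 4028, and 4338 and 5592 in Socs2-null liver. Both wildtype 36 h arrays stood above all other wildtype arrays, whereas the pools of the later Socs2-null groups lay far apart. The log2 change in wildtype liver was -0.06 ± 0.14 at 24 h and 0.50 ± 0.14 at 36 h (1.42-fold higher, adjusted p = 0.0355), and 0.21 ± 0.14 and 0.29 ± 0.14 in Socs2-null liver (adjusted p = 0.311 and 0.174). The call was lost without any 1 of 6 arrays, all 4 at 0 h and both wildtype 36 h arrays (adjusted p up to 0.198), and with quantile normalization (0.0529).

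Of the membrane regulators, Cd55 rose and Cd59a fell. Cd55, or decay-accelerating factor, dismantles convertases on the cell's own surface, and Cd59a blocks assembly of the membrane attack complex there. Cd55 read 92.7 and 82.2 at 0 h, then 143 and 98.3 at 24 h, then 151 and 147 at 36 h in wildtype liver, and 105 and 98.0, 152 and 160, and 163 and 176 in Socs2-null liver. Within each genotype all arrays after hepatectomy were above those at 0 h, although wildtype 24 h replicate 2 was only just so.

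The log2 change of Cd55 was 0.39 ± 0.15 (adjusted p = 0.0791, not called) and 0.68 ± 0.15 (adjusted p = 0.0132) in wildtype and 0.55 ± 0.15 and 0.66 ± 0.15 in Socs2-null liver (adjusted p = 0.0218 and 0.0107). Both of its other probe sets were higher as well, by 0.36 to 0.91 over the 4 comparisons. The wildtype 36 h call and the Socs2-null 24 h call were lost without either 0 h array of the genotype or without replicate 2 of the later group (adjusted p up to 0.121 and 0.118), and the Socs2-null 36 h call without replicate 2 of either group (up to 0.0775). Without wildtype 24 h replicate 2 the wildtype 24 h change was 0.63 and was called.

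Cd59a read 884 and 909 at 0 h, then 463 and 526 at 24 h, then 607 and 498 at 36 h in wildtype liver, and 917 and 885, 546 and 366, and 335 and 450 in Socs2-null liver. All arrays after hepatectomy were below all at 0 h, and the lowest were Socs2-null arrays. The log2 change was -0.84 ± 0.19 and -0.69 ± 0.19 in wildtype liver (adjusted p = 0.0103 and 0.0344) and -0.98 ± 0.19 and -1.18 ± 0.19 in Socs2-null liver (adjusted p = 0.00439 and 0.00196), and its second probe set gave -0.65 to -0.91. The wildtype calls were lost without either wildtype 0 h array, and at 24 h without 24 h replicate 1 (adjusted p up to 0.0721) or at 36 h without 36 h replicate 2 or either Socs2-null 0 h array (up to 0.207). Cd59a has a copy, Cd59b, which its probe sets may also read. Cd46, another cofactor for factor I, read 34.9 to 58.8, close to background, and was not called.

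The receptors for C3a and C5a were dim on these arrays. C3ar1 read 92.9 and 93.8 at 0 h, then 75.4 and 62.1 at 24 h, then 58.3 and 63.7 at 36 h in wildtype liver, and 83.8 and 84.1, 47.4 and 56.5, and 60.7 and 49.4 in Socs2-null liver. It was lower on every array after hepatectomy than at 0 h, and its log2 change of -0.37 to -0.56 (standard error 0.12) was called in all 4 comparisons. Its 2 other probe sets read 33.3 to 60.6 and changed by -0.07 to 0.19, and the mean of its probe sets was called in none. The wildtype calls were lost without any 1 of the arrays compared (adjusted p up to 0.245), at 24 h also without either Socs2-null 0 h array, with quantile normalization, median centring or a pseudocount of 1, and the Socs2-null 36 h call without either 0 h array or 36 h replicate 2 (up to 0.108).

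C5ar1 was read by 2 probe sets that differed. The chosen one stayed at 40.8 to 56.4 on every array, about the level of the tag controls, and was not called. The other read 23.8 to 28.2 at 0 h, under the tag controls, and 45.6 to 103 after hepatectomy. Its highest value, 103, was on Socs2-null 24 h replicate 2, the array on which the neutrophil markers S100a8 and S100a9 read 655 and 953, against 96.3 and 127 on replicate 1 and at most 152 and 201 on the other arrays. The other 5 measured markers of the 8 listed (Elane, Mpo, Csf3r, Ngp and Camp) summed to 315 on that array and to 249 to 389 on the others. C5ar1 is abundant on neutrophils, and their part in this reading was not tested.

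**Figure D3:**
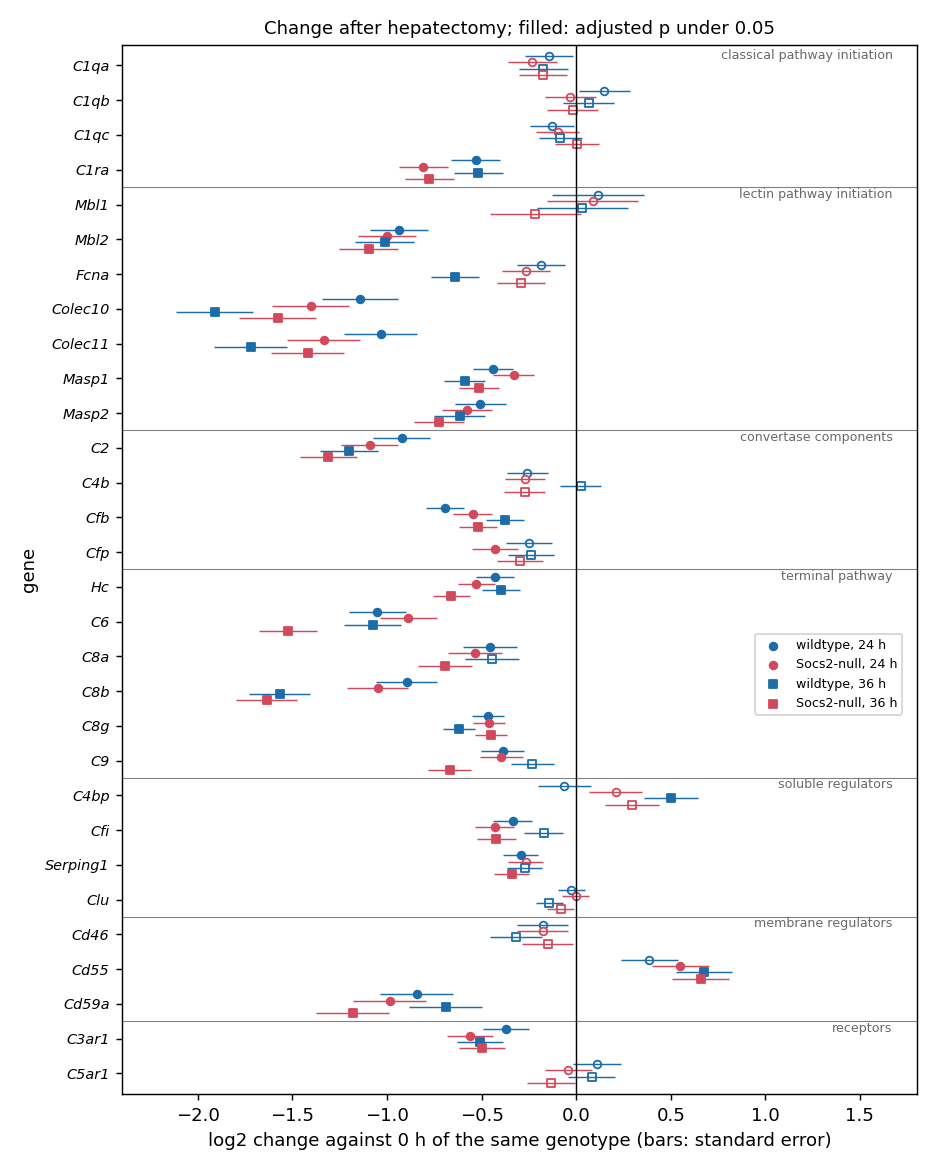
Log2 change against 0 h of the same genotype for the 30 measured genes (rows, grouped by role), with bars of 1 standard error; circles are 24 h, squares 36 h, blue wildtype, red Socs2-null, and filled symbols were called by limma. Filled symbols lie left of 0 except for Cd55 and C4bp, and Colec10 at 36 h in wildtype liver lies furthest left at -1.91.

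Between 24 h and 36 h no member was called in either genotype. In wildtype liver 0 of 30 were called by limma (0.24% of all genes), with 7 at an unadjusted p under 0.05. In Socs2-null liver 0 of 30 were called (0.00585% of all genes), with 3 at an unadjusted p under 0.05. The percentages are at the adjusted threshold, and shares of all genes at the unadjusted one are not given here. In wildtype liver the largest uncalled steps were -0.77 ± 0.20 for Colec10, -0.69 ± 0.19 for Colec11, -0.67 ± 0.16 for C8b and 0.56 ± 0.14 for C4bp, with adjusted p from 0.115 to 0.162. Colec10 was called without wildtype 36 h replicate 1 (-1.11), and C4bp without either Socs2-null 24 h array. In Socs2-null liver the corresponding steps were -0.17, -0.09, -0.59 and 0.09, and the largest was -0.64 ± 0.15 for C6 (adjusted p = 0.592).

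Loss of Socs2, whose product restrains growth hormone signalling, gave no called difference in any complement gene. By limma 0 of 30 members were called at 0 h, where 0% of all genes were, with 0 at an unadjusted p under 0.05. At 24 h 0 were called (0.0117% of all genes) with 2 at an unadjusted p under 0.05, and at 36 h 0 (0.0234%, of which 0.0175% lower) with 5. Averaged over the 3 times 0 were called (0.0292%) with 5 at an unadjusted p under 0.05. These percentages are at the adjusted threshold, and shares of all genes at the unadjusted one are not given here. Socs2 itself was not called at 0 h, though it read 403 ± 202 (SD, n = 2) in wildtype and 27.0 ± 0.898 in Socs2-null liver. The 0 calls at 0 h thus do not show that complement genes were unchanged.

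At 0 h the differences ran from -0.14 to 0.24 on the log2 scale, the narrowest range of the 3 times. The Socs2-null arrays lay wholly above the wildtype arrays for 15 of the 30 members and wholly below for 5, and 10 overlapped, while over all genes 13.9% lay wholly above and 27.9% wholly below. None of these differences was called. The highest were 0.24 ± 0.12 for Cfp and 0.23 ± 0.13 for C1qb.

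At 36 h the largest uncalled differences went in both directions. Colec10 was higher by 0.54 in Socs2-null liver (95% confidence interval 0.09 to 0.98, adjusted p = 0.681) and Fcna by 0.43 (0.15 to 0.71, adjusted p = 0.539). Cd59a stood at -0.48 (-0.91 to -0.06, adjusted p = 0.712), C6 at -0.46 (-0.80 to -0.13, adjusted p = 0.603) and C9 at -0.43 (-0.68 to -0.18, adjusted p = 0.489). For Fcna, Cd59a, C6 and C9 the 2 Socs2-null arrays lay on one side of both wildtype arrays. For Colec10 the arrays overlapped (wildtype 75.6 and 40.8, Socs2-null 104 and 75.2). Of the 30 members, the Socs2-null arrays lay wholly above for 7 and wholly below for 5 at 36 h. The share over all genes at 36 h was not computed. At 24 h the pair with an unadjusted p under 0.05 was Cd55 at 0.35 (0.02 to 0.68, adjusted p = 0.591) and C3ar1 at -0.32 (-0.59 to -0.05, adjusted p = 0.537).

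The response to hepatectomy itself was compared between the genotypes with an interaction term. No member differed at 24 h (0 called, 0% of all genes, 0 at an unadjusted p under 0.05) or at 36 h (0 called, 0.00585% of all genes, 1 at an unadjusted p under 0.05) by limma. The 1 gene was C9, whose 36 h change was lower in Socs2-null liver by a log2 difference of -0.44 ± 0.16 (adjusted p = 0.999). The share of all genes at an unadjusted p under 0.05 is not given here. C6 and Cd59a gave -0.45 ± 0.22 and -0.49 ± 0.27 (adjusted p = 0.999 for both). The genes called at 36 h in Socs2-null but not wildtype liver, C8a, C9, Cfi and Serping1, are thus not shown to respond differently.

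**Figure D4:**
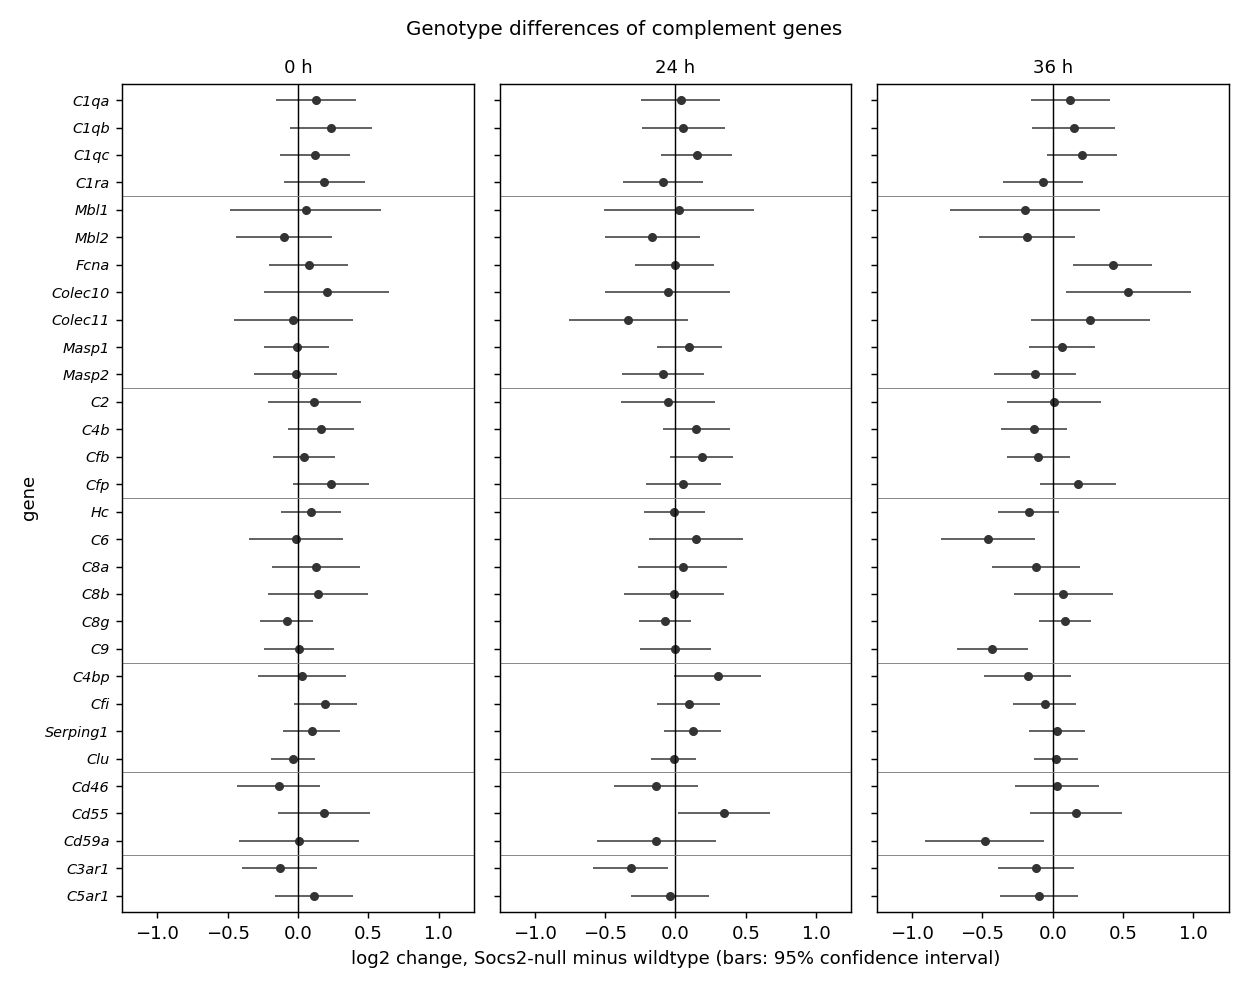
Log2 difference between Socs2-null and wildtype liver at 0 h, 24 h and 36 h (panels) for the 30 measured genes, with 95% confidence intervals. No gene was called; at 36 h the intervals of Colec10 and Fcna lie above 0 and those of Cd59a, C6 and C9 below it.

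Other complement genes, 17 of 25 listed being measured, moved in both directions, with 4 called higher and 3 lower in wildtype liver at 24 h, 2 and 4 at 36 h, and 5 and 3, and 4 and 3 in Socs2-null liver. Apcs, the gene of serum amyloid P, a pentraxin that binds C1q and is an acute phase protein of mice, was higher by 2.23 ± 0.13 and 2.03 ± 0.13 in wildtype and by 2.21 ± 0.13 and 2.15 ± 0.13 in Socs2-null liver (adjusted p from 5.51e-06 to 1.22e-05). Cd93 was called higher as well (0.91, 0.89, 1.10 and 1.27). The C1 protease genes C1s1 (-0.71, -0.66, -0.75 and -0.72) and C1rb (-0.85, -0.82, -0.94 and -1.05) were called lower in all 4 comparisons, as C1ra was. Susd4, a membrane inhibitor of complement, was called lower too (-1.64, -1.45, -1.28 and -1.21). Vtn, the gene of vitronectin, a plasma inhibitor of the terminal complex, gave -0.13 to 0.02 and was not called.

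Genes for signals known to induce hepatic complement also moved both ways, 17 of 20 being measured. In wildtype liver 5 were called higher and 4 lower at 24 h and 4 and 3 at 36 h, and in Socs2-null liver 4 and 1, and 6 and 2. The receptor genes Il1r1 (2.48, 1.79, 2.44 and 2.57) and Tnfrsf1a (1.14, 0.66, 0.87 and 0.91) were called higher in all 4 comparisons. Cebpa, a transcription factor of mature hepatocytes, was called lower in all 4 (-1.60, -1.12, -1.61 and -1.36). Stat3, the factor downstream of interleukin 6, was called higher in wildtype liver at 24 h (0.64 ± 0.18) and Socs2-null liver at 36 h (0.67 ± 0.18).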

How the data were processed

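The deposited values are probe set intensities on a linear scale, processed by the authors, for 45141 probe sets on 12 arrays. How they were normalized and summarized per probe set, and on which array type, is not given in the sources used here. Per the labels' protocols, each array carried biotinylated cRNA from 10 micrograms of total RNA pooled from 3 animals. Platform annotation names 1 gene for 28898 probe sets, which gave 17097 genes with 1 probe set each. One group-means model over 6 groups of 2 arrays (6 residual degrees of freedom) was fitted to log2(intensity + 16) of all genes with limma 3.58.1 in R 4.3.3 (lmFit, contrasts.fit and eBayes, with robust and trended variance from statmod 1.5.0), with no filter. It gave 12 two-sided comparisons, adjusted by Benjamini-Hochberg across the 17097 genes and called under 0.05. The fit was checked on simulated data.

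The members and the lists of other complement genes, inducing signals and cell type markers were chosen with earlier results of these data known. Members called in at least 1 comparison are given array by array, up to 4 per role by smallest adjusted p, and the others by ranges, with values where groups or probe sets disagree. Motifs were searched on both strands of RefSeq promoter windows. Python 3.11.15 with matplotlib 3.10.9 drew the figures. p-values measure the spread between pools. Alternatives were quantile normalization, median centring, a pseudocount of 1 or 64, a filter that drops the dimmest 25% or 50% of genes, averaging all probe sets per gene, omitting cross-hybridizing ones, eBayes without trend and robust, replicate number as a block, fitting the compared arrays by themselves, and omitting 1 array at a time.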

Additional observations from a re-analysis of the deposited data

How the results depend on the processing

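Of the 73 member calls, 38 held under every alternative, 35 were lost in at least 1 and 0 were reversed. The calls lost numbered 19 with median centring, 8 with the mean of all probe sets, 5 with only the arrays compared, 2 with quantile normalization, 1 with a pseudocount of 1 and 1 with plain eBayes. Median centring moved the wildtype 24 h count from 18 to 10, and there the median of all genes moved from -0.08 to 0.04. Leaving out 1 array gave 8 to 18 members at 24 h and 7 to 19 at 36 h in wildtype liver, 12 to 19 and 13 to 19 in Socs2-null liver, and 0 to 1 between 24 h and 36 h in wildtype liver. The other counts of 0 stayed at 0 under every alternative run. Counts over all genes moved as well, 80 of 275 by more than 1.5-fold or to or from 0. Without Socs2-null 36 h replicate 1 the uncalled genotype difference of C4bp at 36 h turned from -0.18 to 0.0038 (-0.36 without replicate 2), and without wildtype 36 h replicate 2 the uncalled 36 h interaction of Colec10 turned from 0.33 to -0.010 (0.68 without replicate 1). The causes were not tested. With the replicate block the counts against 0 h were 17 and 17 in wildtype and 18 and 19 in Socs2-null liver, and 0 elsewhere. The block ended the calls of C3ar1 in wildtype liver and Masp1 in Socs2-null liver at 24 h and no other member call. Same-numbered arrays did not deviate together in all groups (r from -0.50 to 0.35 over 15 pairs of groups, 3 above 0.1), so the numbers were taken as names. The highest r was between wildtype 24 h and Socs2-null 36 h, and the lowest between Socs2-null 24 h and Socs2-null 36 h. Whether some pools share an unrecorded factor was not tested. Signals near the tag controls limit Cd46, C5ar1 and C3ar1. Cd55 was also dim at 0 h, at 82.2 to 105, beside 83.8 to 93.8 for C3ar1.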

Other observations

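Marker genes of other liver cells changed in both directions beside the complement genes. Of the 7 sinusoidal endothelial markers, all measured, Kdr was called lower by limma in all 4 comparisons with 0 h (-0.46, -0.66, -0.50 and -0.76), Fcgr2b in 3 of them and Clec4g in Socs2-null liver at 36 h (-0.94), while Pecam1 was called higher at 36 h in both genotypes (0.44 in each). Lyve1, Stab1 and Stab2 were not called. The summed intensity of the 7 ran from 3167 to 3553 at 0 h, from 2809 to 3091 at 24 h and from 2131 to 2566 at 36 h.

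Of the 4 monocyte markers measured of 5 listed, Fn1 was called higher in all 4 comparisons (0.76, 0.68, 0.65 and 0.64) and Chil3 in 3, Lyz2 gave -0.46, -0.20, -0.36 and -0.44 without a call, and Ccr2 stayed near the tag controls. The 2 measured red cell markers of 3 listed were called lower in all 4, with a summed intensity of 8108 to 8353 at 0 h and 2631 to 4300 later. Of the 4 measured adipocyte markers of 6 listed, Fabp4 alone was called, higher in all 4 comparisons (1.88, 1.46, 2.20 and 1.62), and Adipoq and Lep were under the tag controls in every group. Of the 4 measured cholangiocyte markers of 5 listed, 0 were called by limma in these comparisons. At an unadjusted p under 0.05 there were 0 to 2, and the share of all genes at that threshold is not given here. Of the 5 B and T cell markers, Cd3e was called higher at 36 h in both genotypes (0.52 in each), Cd79a (-0.39) and Cd8a (-0.36) lower in wildtype liver at 24 h, and Ms4a1 lower in wildtype liver at 36 h (-0.68).

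Members read higher on replicate 1 than on replicate 2 in 15 to 22 of 30 cases over the 6 groups. The widest median gap was in Socs2-null liver at 24 h, with 22 of 30 higher on replicate 1 (40.9% of all genes) and a median log2 difference of 0.13 (-0.06 over all genes). There Hc, C9 and Mbl2 were among the 22. The counts were 20 in wildtype liver at 0 h (49.6% of all genes), 21 in wildtype liver at 24 h (45.6%) and 20 in Socs2-null liver at 36 h (52.9%). Socs2-null liver at 0 h had 15 (59.1% of all genes) and wildtype liver at 36 h had 17 (55.5%), so the excess was not seen in every group. The difference was not tested.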
